A study of Rattus norvegicus with 6 samples.

Results

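Among all named genes on the array, 7 transcription and cell-cycle regulators that muscle is known to switch on when it loses its nerve were examined: Myog, Myod1, Myf6, Runx1, Hdac4, Gadd45a and Cdkn1a. They were chosen by symbol, as every probe set annotated with exactly 1 of these symbols, which gave 8 probe sets (2 for Cdkn1a and 1 for each of the others) of 15923 on the array, and 7 genes of 10412 named ones. Expression had been measured in the tibialis anterior, a fast muscle at the front of the lower leg, of 3 male Wistar rats. Their age is given as 8 weeks, read here as the age at the first operation and not at sampling. In each rat the peroneal nerve, which supplies this muscle, had been cut and its end sewn into another muscle, the biceps femoris, under ketamine (100 mg/kg) and xylazine (10 mg/kg). After 4 weeks the cut ends of the nerve were joined, and the rats lived for 8 weeks, read here as counted from that repair. One group is the operated (ipsilateral) muscle and the other is the contralateral muscle of the same rats, with 1 array per muscle and 3 arrays per group. The contralateral leg belongs to an operated animal, and no muscle of an unoperated rat and no earlier time after denervation is among the samples. The rats carry the numbers 4, 5 and 6.

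Myog (myogenin), Myod1 (MyoD) and Myf6 (MRF4) are basic helix-loop-helix factors that bind E-boxes in muscle genes. They drive the formation of muscle fibres, and in adult muscle electrical activity keeps myogenin low. After denervation the histone deacetylase HDAC4 accumulates and relieves repression of Myog, which in turn activates acetylcholine receptor genes and atrophy genes. Runx1, a DNA-binding factor, is also induced by loss of the nerve. Gadd45a, a stress-induced protein, and Cdkn1a (p21), an inhibitor of cyclin-dependent kinases that is a target of p53, are induced in denervated fibres as well.

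The promoters of the 3 members whose ipsilateral intensity exceeded the contralateral most on average among those tested are shown, since the differences described below turn mainly on them. They are RefSeq sequences on build GRCr8, each 300 bases long, from 250 before to 50 after the annotated start, 5′ to 3′ on the gene's strand. Capitals mark E-boxes (CANNTG, searched on both strands) and p53 half-sites, a motif searched by its consensus on both strands; no E-box overlaps a half-site in these 3 windows.
Myog, chr13:48297226-48297525, + strand: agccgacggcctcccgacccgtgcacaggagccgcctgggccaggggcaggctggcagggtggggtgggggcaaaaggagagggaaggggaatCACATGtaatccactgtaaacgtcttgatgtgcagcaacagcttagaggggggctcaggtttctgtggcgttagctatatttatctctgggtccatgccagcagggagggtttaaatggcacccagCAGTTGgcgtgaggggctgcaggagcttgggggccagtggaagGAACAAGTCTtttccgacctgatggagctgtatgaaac
Runx1, chr11:45421276-45421575, - strand: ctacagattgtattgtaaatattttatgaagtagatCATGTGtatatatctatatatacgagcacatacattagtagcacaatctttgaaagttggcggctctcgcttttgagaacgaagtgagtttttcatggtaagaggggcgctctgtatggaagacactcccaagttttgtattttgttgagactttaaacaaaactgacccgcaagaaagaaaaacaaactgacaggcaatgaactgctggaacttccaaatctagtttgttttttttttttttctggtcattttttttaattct
Cdkn1a, chr20:7150682-7150981, + strand: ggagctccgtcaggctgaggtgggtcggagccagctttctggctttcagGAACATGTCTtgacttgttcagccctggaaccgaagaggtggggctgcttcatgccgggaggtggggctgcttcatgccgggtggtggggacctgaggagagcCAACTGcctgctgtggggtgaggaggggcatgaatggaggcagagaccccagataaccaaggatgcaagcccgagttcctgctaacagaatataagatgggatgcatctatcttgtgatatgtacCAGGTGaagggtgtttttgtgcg

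Counted from 1 at the 5′ end of the window, the Myog promoter had E-boxes at bases 94 to 99 and 220 to 225 and a half-site at 263 to 272. The Cdkn1a window had E-boxes at bases 153 to 158 and 278 to 283 and a half-site at 50 to 59, and the Runx1 window had 1 E-box, at 37 to 42. Of the 7 members 6 had a promoter entry, Myod1 being the exception. The windows of Myf6, Hdac4 and Gadd45a held 1 E-box each, and that of Gadd45a a half-site. Among all 33469 promoter windows, 72.1% held at least 1 E-box, 38.6% at least 2 and 7.98% a half-site, so E-boxes are common letters in windows of this length. A match is a description of the sequence and not evidence of binding.

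In the ipsilateral muscle of animals 5 and 6, the intensities of Myog, Runx1 and the brighter probe set of Cdkn1a were 1.52 to 9.15 times those of the contralateral muscle, while in animal 4 none of these 3 was higher. Myod1 and Myf6 lay at nearly the same mean in both legs. None of the 7 tested probe sets passed the adjusted threshold, so the values below are measured differences that did not reach it. Each difference is the log2 ratio of the operated to the other leg, with 15.8 added to both intensities, a scale that understates differences of dim probe sets, and their standard errors (SE) come from limma's paired fit of 9519 probe sets. In that fit 0 probe sets (0%) passed a Benjamini-Hochberg threshold of 0.05, and 605 (6.36%) had an unadjusted p under 0.05, of which Runx1 was the 1 member. Nothing in the labels but the animal number separates the 3 pairs, and an exact sign-flip permutation test over 3 pairs cannot give a two-sided p below 0.25.

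**Figure D1:**
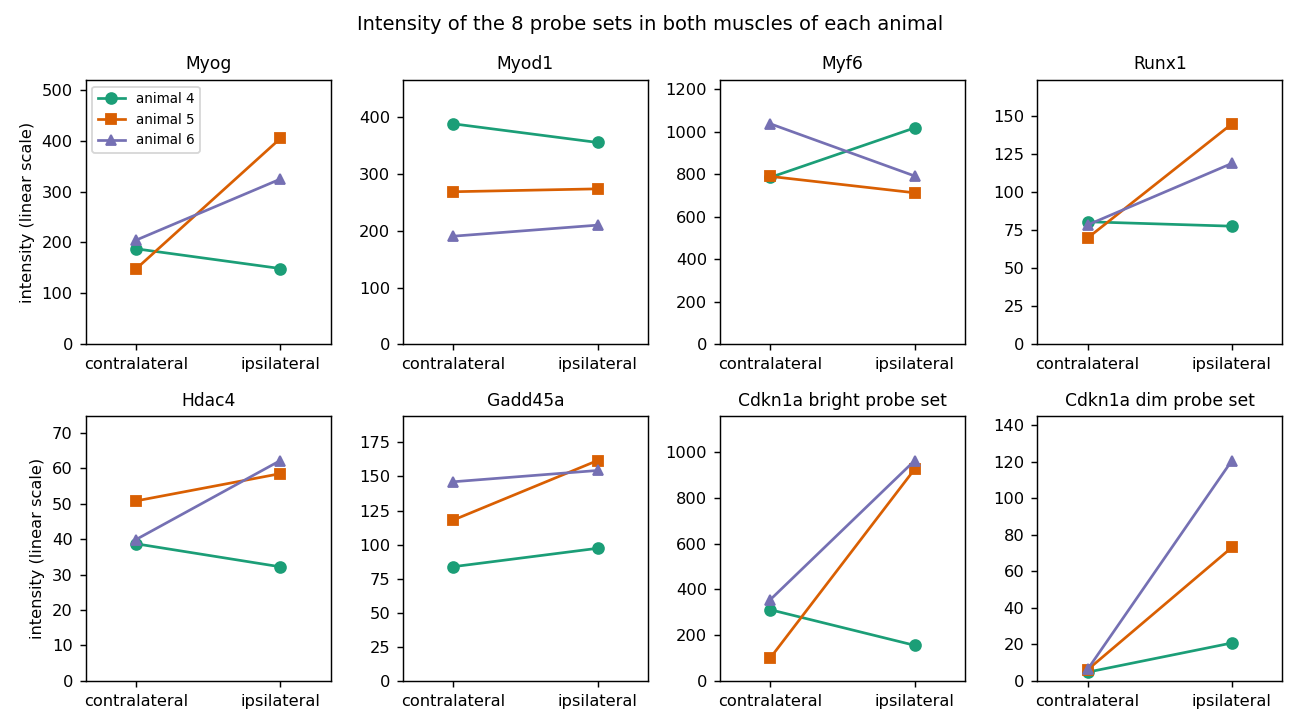
Deposited intensity (linear scale from 0, one axis per panel) of each of the 8 probe sets in the contralateral and ipsilateral muscle; each line joins the 2 muscles of 1 animal. The Cdkn1a, Myog and Runx1 lines of animals 5 and 6 go up, that of animal 4 goes down in all but the dim Cdkn1a probe set, and the Myod1 lines are nearly flat.

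Array medians ran from 60.2 to 66.6 intensity units. The fibre genes Acta1 (skeletal actin) and Ckm (muscle creatine kinase) were at 5212 or more and 5877 or more on every array, so the fibre markers of the labelled tissue were present. Animal 4 stood apart in the hybridisation control cre, which was dimmest on its arrays. It was at 1117 for the contralateral leg and 1476 for the operated one, where animals 5 and 6 had 2481 to 3605. The operated leg of animal 4 also had the most Prm1, a sperm protamine, at 617 against 175 in its contralateral leg. Prm1 was higher in the operated leg of the other animals too, at 72.4 against 56.7 in animal 5 and 248 against 39.5 in animal 6. The actin signal near the 3′ end, relative to the middle of the transcript, was 2.77 and 1.36 in the contralateral and operated leg of animal 4. In animal 6 it differed the other way, at 1.68 and 2.87, and in animal 5 it was 1.54 and 1.53. The part of these in the results was not tested. Without animal 4 the number of probe sets past the adjusted threshold went from 0 to 241, and values without it are given beside several results below.

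Myogenin was the myogenic factor whose 2 legs were farthest apart. In the contralateral muscle Myog had intensities of 188, 148 and 205 in animals 4, 5 and 6. In the ipsilateral muscle it was at 149, 405 and 325 in the same order. The ipsilateral values of animals 5 and 6 lay above every contralateral value, and that of animal 4 lay within the contralateral range, so the groups overlapped. Group means were 180 ± 29.0 contralaterally and 293 ± 131 ipsilaterally (SD, n = 3). The ratio of the 2 legs was 0.793, 2.73 and 1.59, in the same order. Its log2 difference was 0.56 (SE 0.27, 95% interval -0.036 to 1.16, limma adjusted p = 0.776), and it was the 135th largest of the 9519 probe sets. Without animal 4 it was 0.99 (SE 0.19, limma adjusted p = 0.0231) in a fit with 1 residual degree of freedom in which 241 probe sets (2.53%) passed, and without animal 5 it was 0.16; over all alternatives the adjusted p of Myog ran from 0.0231 to 1.0.

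MyoD, which marks activated muscle precursors as well as fast fibres, differed little between the legs. Myod1 was at 389, 269 and 191 in the contralateral muscles of animals 4, 5 and 6, and at 356, 274 and 210 in the ipsilateral ones. Both legs had the same order of animals, and the contralateral values spanned 2.04-fold between animals whereas the ratio of the legs within an animal was 0.915, 1.02 and 1.10. The log2 difference was 0.01 (SE 0.15), with a 95% interval of -0.33 to 0.35. That interval does not show that the levels are equal, but it leaves out a log2 difference as large as the mean of Myog.

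MRF4, the member of the family most abundant in adult fibres, had contralateral intensities of 785, 790 and 1037 in animals 4, 5 and 6. Its ipsilateral intensities were 1018, 713 and 792. Myf6 was higher ipsilaterally in animal 4 and lower in animals 5 and 6, the opposite of the signs of Myog and Runx1. With means of 871 ± 144 and 841 ± 159 (SD, n = 3) the groups overlapped. The mean log2 difference was -0.053 (SE 0.17, 95% interval -0.44 to 0.33), and per animal it was 0.37, -0.15 and -0.38.

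Runx1 had the narrowest contralateral range of the tested members. Its contralateral intensities were 80.5, 69.8 and 78.4 in animals 4, 5 and 6, and its ipsilateral ones were 77.6, 145 and 119. As with Myog, the ipsilateral muscles of animals 5 and 6 exceeded every contralateral muscle and that of animal 4 did not. Contralateral values spanned 1.15-fold between animals and ipsilateral values 1.87-fold. For Runx1 the log2 difference was 0.46 (SE 0.19, 95% interval 0.023 to 0.90), with an unadjusted p of 0.0412 and a limma adjusted p of 0.77. Without animal 4 the difference was 0.71 (SE 0.19) and its limma adjusted p was 0.0784, still short of the threshold. Without animal 5 it was 0.24 (SE 0.22); over all alternatives the adjusted p ran from 0.0784 to 1.0.

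Hdac4, the deacetylase upstream of Myog in the denervation response, was close to the filter on dim probe sets (an intensity of 42.4), so its values are among the least certain. It was at 38.7, 50.8 and 39.9 contralaterally and at 32.2, 58.5 and 62.2 ipsilaterally. The ipsilateral group contained both the lowest and the highest of the 6 values. The log2 difference was 0.15 (SE 0.19, 95% interval -0.27 to 0.57), and the 3 animals gave -0.18, 0.16 and 0.49. Without animal 4 it was 0.32. Without animal 6 it was -0.013, so its direction rests on that animal.

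Gadd45a was at 83.8, 118 and 146 contralaterally and at 97.3, 162 and 154 ipsilaterally. It was the 1 tested member that was higher ipsilaterally in all 3 animals, where 12.3% of all tested probe sets were higher and 15.1% lower in all 3, so 1 of 7 is near that background. Within an animal the ratio of the legs was 1.16, 1.37 and 1.06, less than the 1.74-fold range among contralateral muscles, and the groups overlapped. Gadd45a had a log2 difference of 0.22 (SE 0.15, 95% interval -0.12 to 0.56), and without animal 5 it was 0.13.

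Cdkn1a had the largest differences of all members and the widest spread between animals. Its brighter probe set had contralateral intensities of 311, 101 and 355 in animals 4, 5 and 6, and ipsilateral ones of 155, 925 and 962.5. The ipsilateral intensity was thus 0.50, 9.15 and 2.71 times the contralateral one. On the log2 scale these were -0.93, 3.01 and 1.40, which was the 29th lowest value in animal 4, the 6th highest in animal 5 and the 24th highest in animal 6 among 9519 probe sets. The standard deviation of the 3 differences was 1.98, below that of Myh3 (2.04) and above those of all other tested probe sets, with a median of 0.249 over all tested probe sets. Over the 3 animals the log2 difference was 1.16 (SE 0.55, 95% interval -0.067 to 2.38, limma adjusted p = 0.776), without animal 4 it was 2.20 (SE 0.28, limma adjusted p = 0.00234) and without animal 5 it was 0.23. Over all alternatives its adjusted p ran from 0.00234 to 1.0.

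The dimmer probe set of Cdkn1a lay below the filter and was not tested in the same fit. Its contralateral intensities were 4.8, 6.1 and 6.3 in animals 4, 5 and 6, and its ipsilateral ones were 20.8, 73.2 and 121. Here every ipsilateral muscle exceeded every contralateral one, whereas in animal 4 the brighter probe set went the opposite way. Both probe sets had their higher ipsilateral values in animals 5 and 6. In the fit without the filter the dimmer one had a log2 difference of 1.83 (SE 0.34, unadjusted p = 0.00164, limma adjusted p = 0.879). The mean of both probe sets differed by -0.052 in animal 4, and by 1.49 (SE 0.39, limma adjusted p = 0.503) over all 3 animals.

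**Figure D2:**
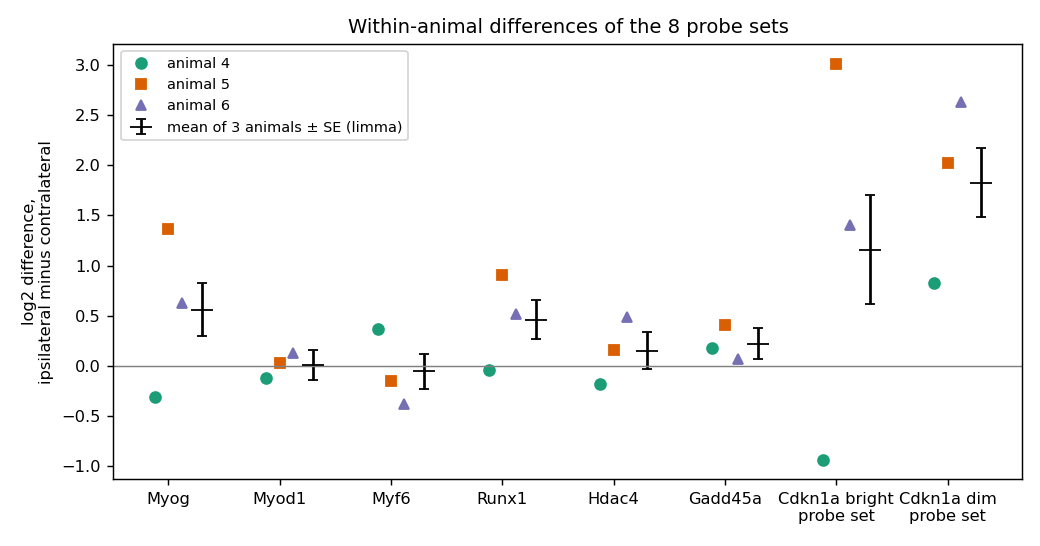
Log2 difference, ipsilateral minus contralateral, of each probe set in animals 4, 5 and 6 (symbols), with the mean of the 3 animals ± SE from limma (black); the dim Cdkn1a probe set comes from the fit without the filter. For the bright Cdkn1a probe set the animals run from -0.93 to 3.01, and for Myod1 from -0.12 to 0.13.

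Across the 7 tested probe sets, 5 (Myog, Myod1, Runx1, Hdac4 and the brighter Cdkn1a) were higher in animals 5 and 6 and lower in animal 4, a combination of signs that 16.9% of all tested probe sets had. This combination was picked out after the values were seen. Groups without overlap were found for 0 of the 7, where over all tested probe sets 4.74% were without overlap and higher ipsilaterally and 5.78% lower. Per animal, the median difference of the 7 was -0.12, 0.41 and 0.49 in animals 4, 5 and 6, beside -0.019, -0.031 and 0.0076 over all tested probe sets. The median of their log2 differences was 0.22 against -0.016 over all tested probe sets. Without animal 4, Myog and Cdkn1a were the 2 of 7 that passed, where 2.53% of all tested probe sets did. Both are among the 5 that were lower in animal 4, so leaving it out raised their differences. Myog and Cdkn1a also passed when the pairing was dropped and only ipsilateral 4 was left out. That setting was chosen after seeing the data, and 0.914% of all tested probe sets passed in it. The members were chosen with earlier results of these data known, so these counts and shares are a description and not a test.

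**Figure D3:**
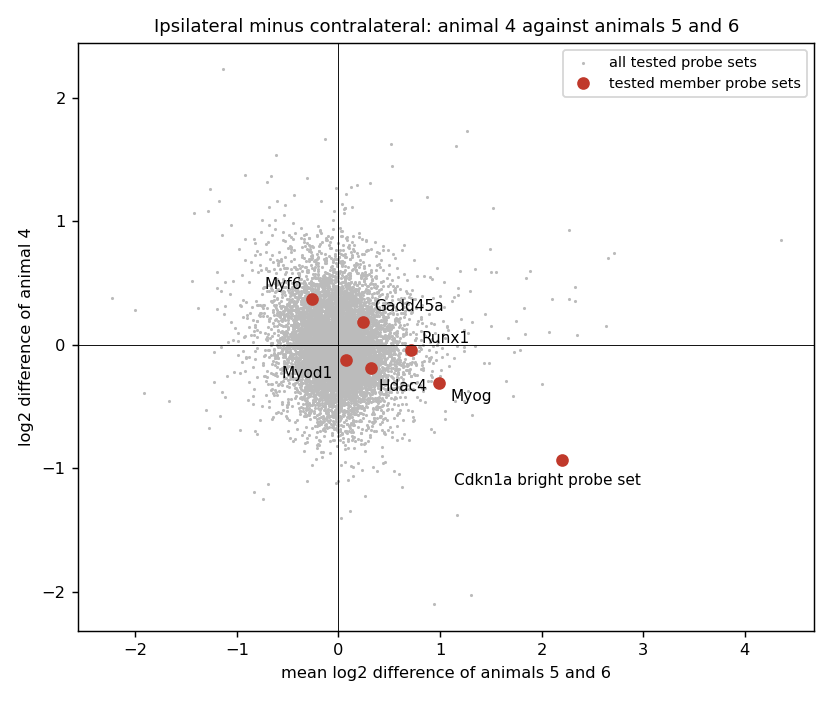
Log2 difference of animal 4 (vertical) against the mean log2 difference of animals 5 and 6 (horizontal) for all 9519 tested probe sets (grey) and the 7 tested member probe sets (red). The bright Cdkn1a probe set lies far to the right at a value below 0 in animal 4, Myog and Runx1 lie to the right near or below 0, and the other members lie within the grey cloud.

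The genes whose profile over the 6 arrays was most like that of a member were found by the root mean square (RMS) difference of mean-centred log2 values. They were sought among 7116 other named genes, each taken by its brightest probe set only. For Myog these were Phlda3 (0.10), Myh10 (0.12) and Fbxo30 (0.12), where Myog itself varied by an RMS of 0.51 about its mean. For Runx1 they were Hmgn2 (0.027), Pxdn (0.065) and Pdk1 (0.076), against 0.33 for Runx1 itself. The brightest Pdk1 probe set differed by -0.11, 0.89 and 0.28 in animals 4, 5 and 6. Another tested Pdk1 probe set differed by only -0.052, 0.14 and 0.048. The nearest profiles to Cdkn1a were much farther away, at 0.49 for Sln (sarcolipin, a regulator of the calcium pump), 0.58 for Myh7 (the slow myosin heavy chain) and 0.60 for Atp2a2 (the slow-fibre calcium pump), against 1.14 for Cdkn1a itself. These 3 were at 0.080, 0.47 and -0.0082 in animal 4, where the brighter Cdkn1a probe set was at -0.93, and at 3.0, 2.99 and 1.61 in animal 5. For Myod1 the nearest was Rreb1 (0.11), for Myf6 Rnase4 (0.047), for Hdac4 Map4 (0.064) and for Gadd45a Acads (0.057). With 6 arrays and so many genes, near profiles are found for any gene, and the likeness is a description.

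Of 106 listed partners, inhibitors and pathway members in 5 lists, 70 were on the array and 51 were tested, each by its brightest probe set; 0 passed the adjusted threshold in limma, and 3 had an unadjusted p under 0.05, beside 6.36% of all tested probe sets. Of the 51, 2 were higher and 6 lower in all 3 animals, beside 12.3% and 15.1% of all tested probe sets, the shares against which the counts in each list below are read. These lists were drawn up with earlier results of these data known.

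Among the partners and inhibitors of the myogenic factors, 12 were tested, with a median log2 difference of 0.032. The E-protein Tcf4, a dimerisation partner of myogenic factors, was higher in all 3 animals (0.32, SE 0.16), and Bhlhe41, a repressor of the same structural family, was lower in all 3 (-0.24, SE 0.15). Mef2c, which acts together with the myogenic factors on muscle promoters, differed by 0.24 (SE 0.16), and by -0.12, 0.35 and 0.50 in the single animals. Id1, which blocks E-proteins, differed by 0.38 (SE 0.26), almost wholly from animal 5 (1.28), and without that animal by -0.066. No probe set carried the single symbol of the precursor genes Pax7 and Myf5, so their levels were not analysed here.

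For the deacetylases and the HDAC4 pathway, 14 genes were tested, with 1 higher and 3 lower in all 3 animals and a median of 0.045. Hdac5, a close relative of Hdac4, differed by 0.19 (SE 0.16). Hdac10 (-0.21, SE 0.16) and Camk2a (-0.17, SE 0.16) were lower and Ywhaz, a 14-3-3 protein of the kind that holds HDAC4 in the cytoplasm, was higher (0.15, SE 0.15) in each animal. Camk2d, a subunit of a kinase that exports HDAC4 from the nucleus, was the 1 gene of this list with an unadjusted p under 0.05 and is named after its values were seen: its difference was 0.56 (SE 0.21), from -0.11, 0.95 and 0.83 in animals 4, 5 and 6. Without animal 4 Camk2d passed, at 0.89 (SE 0.15, limma adjusted p = 0.0126). Of the Runx partners 5 genes were tested, with a median of -0.050. Cbfb, the shared partner subunit of Runx proteins, was lower in all 3 animals by a small -0.097 (SE 0.14).

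The relatives of Gadd45a and the other p53 and stress targets did not follow Cdkn1a as a group. Of 9 tested genes 0 were higher and 0 lower in all 3 animals, and their median was -0.015. Gadd45b differed by -0.19 (SE 0.21) and Gadd45g by -0.029 (SE 0.26), and both turned positive without animal 5. Atf4, a stress-induced transcription factor that is an activator of Gadd45a, was the 1 gene with an unadjusted p under 0.05: it went from 2045 ± 152 to 1468 ± 540 (SD, n = 3), a difference of -0.53 (SE 0.19), with 0.080 in animal 4 and -0.84 and -0.83 in animals 5 and 6. Phlda3, a p53 target that was also nearest in profile to Myog, differed by 0.53 (SE 0.24), with -0.24, 1.12 and 0.70 in the 3 animals. Both passed without animal 4, Atf4 at -0.84 (limma adjusted p = 0.0111) and Phlda3 at 0.91 (limma adjusted p = 0.0185). Atf4, Camk2d and the cell-cycle inhibitor Cdkn1c are named here after their values were seen.

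Among cell-cycle genes 11 were tested, with a median of -0.032. Cdkn1c (p57), the relative of Cdkn1a, had means of 227 ± 103 contralaterally and 466 ± 166 ipsilaterally (SD, n = 3). It differed by 1.0 (SE 0.34), and in animals 4, 5 and 6 by -0.30, 1.80 and 1.5. Without animal 4 it passed (1.65, limma adjusted p = 0.000458). The third inhibitor of this family, Cdkn1b (p27), differed by -0.084 (SE 0.16). Ccnd3, the D-type cyclin of differentiating muscle, was lower in all 3 animals (-0.31, SE 0.15), and Ccnd1 differed by 0.068 (SE 0.15). The proliferation genes Mki67, Top2a and Cdk1 lay below the filter.

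Muscle targets of the myogenic factors and other denervation genes were the list with the most differences in 1 direction. This list too was drawn up with earlier results of these data known. Of 17 tested, 8 were higher and 1 lower in all 3 animals (47.1% and 5.88%, beside 12.3% and 15.1% of all tested probe sets), and the median was 0.29, with 0.080, 0.37 and 0.57 in animals 4, 5 and 6. The 3 with the smallest p were Myh3 (embryonic myosin), Ankrd1 and Myl4 (embryonic myosin light chain), at 3.19 (SE 0.56), 2.05 (SE 0.41) and 0.94 (SE 0.20); unlike Myog they were higher also in animal 4, by 0.85, 0.74 and 0.46. In the fit of all animals 7 of the 17 were higher and 1 lower with an unadjusted limma p under 0.05, beside 6.36% of all tested probe sets. Without animal 4, 7 of the 17 passed, beside 2.53% of all tested probe sets. Among them were Myh3 at 4.36 (limma adjusted p = 1.23e-06), Ankrd1 at 2.71 (limma adjusted p = 0.00111) and Myl4 at 1.18 (limma adjusted p = 0.00968). The others, named after their values were seen, were Ampd3, Sln and Tnni1, which were higher, and Pfkm, which was lower. This fit without animal 4 rests on 2 animals, with 1 residual and 10.1 prior degrees of freedom. Without animal 5, Myh3, Ankrd1 and Myl4 differed by 2.46, 1.27 and 0.66, and without animal 6 by 2.75, 2.18 and 0.98. In both of those fits 0 probe sets passed. Chrna1, an acetylcholine receptor subunit that myogenin activates, had the same signs as Myog, with -0.36, 0.90 and 0.57. Its mean was 0.37 (SE 0.23), and without animal 4 it was 0.73 (limma adjusted p = 0.0637). Without animal 5 the difference of Chrna1 was only 0.10 (SE 0.25), and without animal 6 it was 0.27 (SE 0.30). The atrophy ubiquitin ligase Fbxo32, another target of myogenin, lay below the filter at 47.4 ± 8.00 and 39.3 ± 22.9 (SD, n = 3). Its signs were the opposite of those of Myog in each animal, with 0.59, -0.76 and -0.62 in animals 4, 5 and 6. In the fit without the filter its mean difference was -0.26 (SE 0.30).

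**Figure D4:**
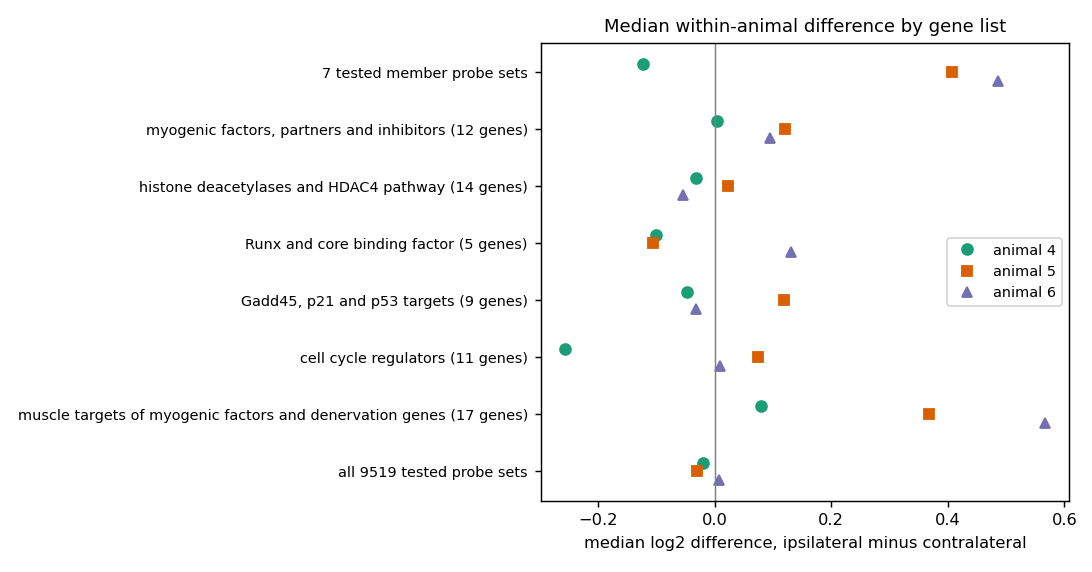
Median log2 difference, ipsilateral minus contralateral, in animals 4, 5 and 6 (symbols) for the 7 tested member probe sets, the 6 gene lists and all tested probe sets. The members run from -0.12 to 0.49 and the muscle targets from 0.080 to 0.57, while the other lists lie between -0.26 and 0.13.

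Several members are also made by cells other than fibres, and in whole muscle fewer cells of a type and less RNA per cell cannot be told apart. Of 8 satellite cell and myoblast markers 4 were on the array. Their summed intensity was 3604 to 4286 contralaterally and 3027 to 3840 ipsilaterally, most of it Des, which fibres express as well, and 0 of the 4 were higher in all 3 animals. Of 12 macrophage and immune markers 11 were measured, with sums of 4866 to 5357 and 3493 to 5059, and of the 10 tested 4 (40%) were lower and 0 higher in all 3 animals, beside 15.1% and 12.3% of all tested probe sets. The sums of the other lists, contralaterally and ipsilaterally, were 809 to 935 and 1017 to 1173 for 7 of 9 Schwann cell markers, and 602 to 653 and 685 to 887 for 6 of 8 endothelial markers, so that for both these lists every ipsilateral sum exceeded every contralateral one. The largest part of the Schwann cell sum was Pmp22, at 436 to 548 contralaterally and 638 to 645 ipsilaterally, whereas the myelin gene Mbp was lower ipsilaterally in all 3 animals (121, 114 and 71.2 against 78.0, 79.9 and 63.2). Of the endothelial markers on the array only Kdr was without overlap, at 208 to 278 contralaterally and 283 to 396 ipsilaterally. Eng, Flt1, Pecam1, Tie1 and Vwf each overlapped. Over all tested probe sets 4.74% were without overlap and higher ipsilaterally. The sums were 1122 to 1764 and 1570 to 2496 for 6 of 8 adipocyte markers. The 3 of these that were tested, Cfd, Fabp4 and Scd, were each higher in all 3 animals, with an unadjusted limma p under 0.05. Their median log2 difference was 0.52. Over all tested probe sets 12.3% were higher in all 3 animals and 6.36% had an unadjusted p under 0.05. Pparg, below the filter, was lower in each animal, at 35.4, 43.4 and 64.8 contralaterally against 18.7, 33.9 and 37.2 ipsilaterally. Plin1, also below it, differed in sign between animals. The sums were 9760 to 11013.5 and 9685 to 10906 for 9 of 9 fibroblast markers. Of these 9, 3 were higher and 2 lower in all 3 animals (33.3% and 22.2%). Lum, Pdgfra and Tcf7l2 were higher and Dcn lower ipsilaterally without overlap, beside 4.74% and 5.78% of all tested probe sets. For 7 of 7 smooth muscle markers the sums were 3722 to 4559 and 3336 to 3952, and for 2 of 4 erythroid markers 3418 to 3908 and 3027 to 3643. For 13 of 13 muscle fibre markers they were 57447 to 63066 and 52487 to 57860. This sum joins opposite directions, as 3 of the 13 were higher and 3 lower in all 3 animals (23.1% each). Myh7 was at 424 to 872 contralaterally and 1213 to 3474 ipsilaterally. The myosin heavy chain Myh4 was at 2421 to 2752 contralaterally and 1016 to 2233 ipsilaterally. The Schwann cell regulator Sox10 (at most 5.6) and the adipocyte hormone Lep (at most 3.9) were near 0 on every array. The part of these cell types in the members' differences was not tested.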

How the data were processed

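RNA of 6 muscles was measured on 6 arrays. The authors deposited linear intensities, with 1 value for each probe set on each array and 9 values at 0. Computed here, the mean after trimming 2% at either end was close to 150 for all arrays. Scaling and software are not given in the sources. Groups came from the titles, in which an abbreviation was read as contralateral, and the number there gave the animal. Genes were named from a platform annotation, which can be old (1 symbol for 12789 probe sets, several for 312, none for 2822 it does not list). Symbols were updated through a GRCr8 gene table, in which 12756 matched and 1 changed. The 57 control probe sets were left out.

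Values were used as log2(intensity + 15.8), the 20th percentile of all values. Array medians lay within 0.117 on that scale, so nothing was normalized further. Probe sets whose mean was above the 40th percentile (an intensity of 42.4) were tested with limma 3.58.1 in R 4.3.3, with an intensity trend, the animal as a block and Benjamini-Hochberg adjustment over all 9519. The fit had 2 residual and 7.47 prior degrees of freedom. It was tested on simulated data. Figures used matplotlib 3.10.9.

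The pairing comes from the design, as both muscles are of 1 rat; deviations from group means correlated at -0.041, 0.072 and 0.13 within animals 4, 5 and 6 over probe sets. The members and lists were chosen with earlier results of these data known. Named genes were all members, up to 3 genes per list with the smallest p and 1 direction in all 3 animals, a fixed set of relatives and targets, and the 3 nearest profiles of each member. Alternatives covered the block, pseudocount, normalization, filter, variance prior, choice of probe set and each animal left out. The number of arrays limits the precision.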

Additional observations from a re-analysis of the deposited data

Results flagged for a closer look

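The dimmer probe set of Cdkn1a was too dim to enter the comparison, yet each ipsilateral library exceeded each contralateral one. The ratio of its mean intensities, ipsilateral over contralateral, was 12.5, from 71.6 ± 50.02 over 5.73 ± 0.814 (SD, n = 3). Per animal the ratio was 4.33, 12 and 19.2 in animals 4, 5 and 6, on contralateral intensities so low that the ratios are imprecise. The same lack of overlap, with the ipsilateral side higher, was found for 240 (3.78%) of the 6347 probe sets left out as dim.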

How the results depend on the processing

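With 3 pairs, no single gene passed in the fit of all animals, and leaving out animal 4 moved more calls than any other setting. The number of probe sets past the adjusted threshold was 0 in each planned setting that kept all animals; with 1 animal left out it ran from 0 to 241, the latter without animal 4, and it was 87 without the pairing and ipsilateral 4, which was tried after seeing the data. The count of members higher in all animals was 1, was 2 without the filter, since the dimmer Cdkn1a probe set then counts, and ran from 1 to 6 with 1 animal left out, where fewer animals have to agree. With 1 animal left out, the difference of Myog ran from 0.16 to 0.99, that of the brighter Cdkn1a probe set from 0.23 to 2.20, that of Myod1 from -0.048 to 0.078, that of Myf6 from -0.26 to 0.11, that of Hdac4 from -0.013 to 0.32, that of Runx1 from 0.24 to 0.71 and that of Gadd45a from 0.13 to 0.30. Without the pairing and ipsilateral 4, Myog (0.96, adjusted p = 0.0408) and Cdkn1a (1.99, adjusted p = 0.0416) passed and Myod1 turned to -0.17. Signs also turned without animal 5 for Id1 (range with 1 animal left out -0.066 to 0.70), Gadd45b (-0.47 to 0.071) and Gadd45g (0.20, range -0.49 to 0.21), and without animal 6 for Gadd45g and Cdkn1b (-0.21 to 0.075); the cause was not tested. Without the block by animal, that is, unpaired, Myog kept its difference of 0.56 with an SE of 0.29 (limma adjusted p = 0.853), Runx1 had an SE of 0.20 and the brighter Cdkn1a probe set one of 0.61, and no member's call changed. Hdac4 was not tested with the filter at the 60th percentile, and the dimmer Cdkn1a probe set in no setting with a filter.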
